A study of Xiphophorus maculatus with 32 samples.

Results

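The 100 transcripts described here are those with the lowest level in skin after 500–600 nm light relative to 350–450 nm light, among the 14297 of 20218 transcripts of *X. maculatus* with a mean of at least 2 CPM (counts scaled to library size). They were ranked by D, the mean log2(CPM + 1) of the 4 fish exposed to 500–550 or 550–600 nm minus that of the 4 fish exposed to 350–400 or 400–450 nm, and the 100 smallest values were taken. The members were chosen by their levels in these 8 fish, so those levels, and their differences from each other or from a control, are given as a description without a test.

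All fish were males of the inbred strain Jp 163 B of *X. maculatus*, the southern platyfish, aged 10 to 11 months, and RNA was taken from skin. Each exposed fish was kept in the dark for 14 h before light exposure and for 6 h after it. For controls the paper describes 4 fish that came directly from the dark cycle, were not handled and had their skin RNA sequenced. It also describes fish kept in individual flasks that stayed unexposed as controls. The labels do not say which of these each control library is, so handling may differ together with exposure. The exposures were 4100 K "cool white" fluorescent light (FL) at 35 kJ/m2, 6 wavebands of 50 nm between 300 and 600 nm, and 5 wavebands of 10 nm between 500 and 550 nm. From the shortest to the longest, the 50 nm wavebands had doses of 7.3, 18.6, 21.6, 21.2, 17.4 and 13.8 kJ/m2, so wavelength and dose differ together. Each exposure had 2 fish, and the 50 nm and the 10 nm experiments each had 2 unexposed controls of their own. The labels list 4 more controls for FL, but those columns hold the same values as the 2 controls of the 50 nm experiment, so 28 of the 32 columns are distinct libraries.

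Fish skin responds to light without the eyes: opsins, cryptochromes and other pigments in peripheral cells absorb different parts of the spectrum, and many fish tissues keep a circadian clock that light can set. Near-ultraviolet and violet photons carry more energy than green and yellow ones and are absorbed by more biological molecules. RNA measured some hours after a pulse reflects both the making and the decay of transcripts.

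The 28 libraries held 12835091 to 41221463 counts, with a median of 16067180. The 2 fish of 510–520 nm stood furthest apart, with 14.01% of all transcripts differing at least 2-fold between them, followed by FL with 9.30% and 520–530 nm with 8.21%. This share was 0.609% between the 50 nm controls and 0.650% between the 10 nm controls. The 20 transcripts with the highest mean CPM over the 28 libraries took 9.65% to 16.3% of the counts of a library. This share was highest in the 2 controls of the 10 nm experiment (16.3% and 15.4%). The skin label could not be checked against keratinocyte, fibroblast or pigment cell markers, because none of those gene names is paired with a transcript here. The only cell type marker with a transcript was MYL2B, a myosin light chain of muscle, at 45.1 to 119 CPM in the 50 nm experiment and at 27.9 to 117 CPM in the 10 nm experiment.

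Names were available for few transcripts. Of the 100, 1 carries a gene name, CHD4_2of2, and 99 are known here only by their Ensembl transcript identifier, so neither their functions nor their sequences are given. Names came from 25 rows that are named coding sequences and from 63 identifiers of a probe list that was read from page images, and 63 named transcripts other than CHD4_2of2 passed the CPM minimum. In 9 cases the identifiers of 2 members adjacent in numerical order lie within 10 of each other, and whether those are transcripts of 1 gene is not given.

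D ranged from -2.02 to -1.16 over the 100 members with a median of -1.30, against a median of 0.03 over all 14297 transcripts. The ratio of mean CPM after 350–450 nm to that after 500–600 nm was 1.42 to 6.36, with a median of 2.54. At the limit of the list the values are nearly continuous: the last members, ENSXMAT00000012319, ENSXMAT00000008336 and ENSXMAT00000003556, had D of -1.17, -1.16 and -1.16, and the next transcripts outside it, ENSXMAT00000010171, ENSXMAT00000010931 and ENSXMAT00000017265, each had -1.16. In 93 of the 100 members all 4 fish of 350–450 nm were above all 4 fish of 500–600 nm, which held for 11.2% of all transcripts. This count follows from how the members were chosen. The members had a mean of 2.20 to 2297 CPM, with a median of 45.0 CPM against 21.0 CPM for all transcripts. Of them, 9 were under 10 CPM and 25 over 100 CPM.

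**Figure D1:**
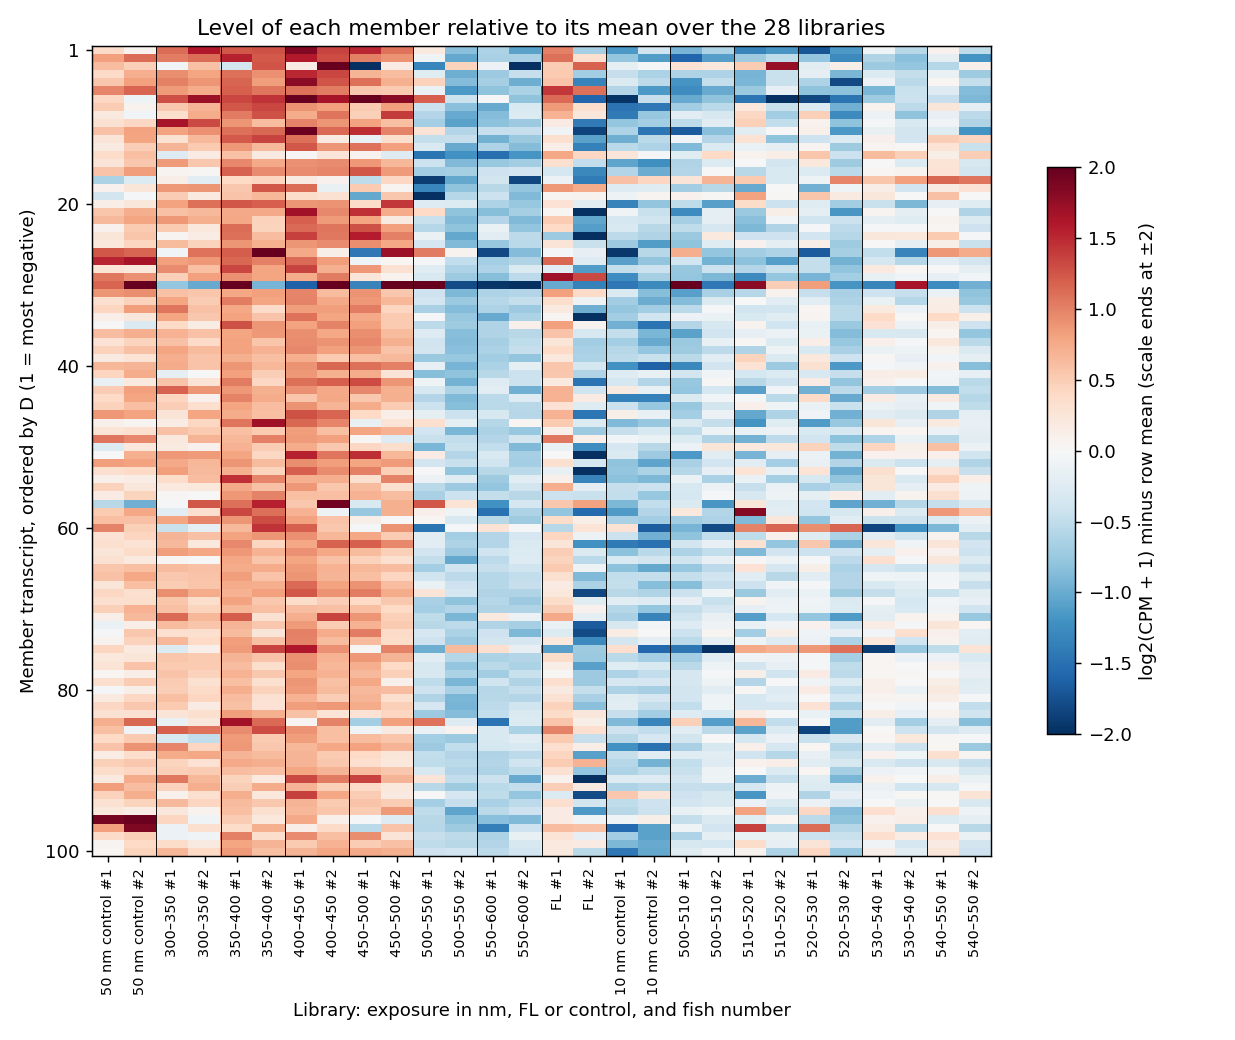
Level of each of the 100 members (rows, ordered by D from the most negative) in the 28 libraries (columns), as log2(CPM + 1) minus the member's mean over all libraries, with colours ending at 2 in either direction. The libraries of 300 to 500 nm and the 50 nm controls are mostly red, those of 500–600 nm and most of the 10 nm experiment mostly blue. A few rows cross this pattern. Within the 10 nm experiment the members' median level was highest in 540–550 nm fish 1.

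The transcript with the most negative D, ENSXMAT00000008685, had 60.6 and 61.7 CPM in the 350–400 nm fish and 93.1 and 65.0 CPM in the 400–450 nm fish. It had 28.8 and 13.5 CPM after 500–550 nm and 15.7 and 11.4 CPM after 550–600 nm. Its 50 nm controls, at 32.8 and 26.1 CPM, lay between the short and the long wavebands, with 1 of the 4 long-wavelength fish inside their range. ENSXMAT00000010411, the next, had 86.2 and 69.5 CPM after 350–400 nm, 89.2 and 73.0 CPM after 400–450 nm, and 13.9 to 27.2 CPM in the 4 fish of 500–600 nm. Its controls had 51.8 and 64.3 CPM, well above all 4 long-wavelength fish, so for this transcript the larger part of D lay below the control level.

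ENSXMAT00000015078, next by D, is of another kind. It had 28.4 and 89.6 CPM after 350–400 nm, 41.0 and 176 CPM after 400–450 nm, 14.4 and 50.7 CPM after 500–550 nm and 33.8 and 2.35 CPM after 550–600 nm. The 2 fish of each waveband differed by more than 2-fold and the short and long groups overlapped, so its D rests on single fish. The following members by D, ENSXMAT00000013975 and ENSXMAT00000003870, were rare, at a mean of 2.20 and 6.84 CPM. ENSXMAT00000013975 had 4.25 to 6.89 CPM in the 4 fish of 350–450 nm and 0.413 to 1.35 CPM in the 4 fish of 500–600 nm. ENSXMAT00000003870 had 10.6 to 21.7 CPM and 2.28 to 7.88 CPM in the same fish. Neither transcript overlapped between the short and the long wavebands.

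The other 5 of the 10 most negative D values belonged to transcripts of 15.5 to 213 mean CPM. ENSXMAT00000008245 had 52.6 to 58.6 CPM in the 4 fish of 350–450 nm, 50.7 and 57.9 CPM in the controls and 10.8 to 22.8 CPM in the 4 fish of 500–600 nm. Outside these sets it had 37.1 and 36.4 CPM after 450–500 nm and 16.3 and 10.8 CPM in the 10 nm controls. Within them the short-wavelength and control fish were at the same level and only the long-wavelength fish were low. ENSXMAT00000000558 went the other way. Its 50 nm controls, at 13.3 and 9.03 CPM, lay within the 5.12 to 23.4 CPM of the long-wavelength fish. They were below the 26.1 to 59.9 CPM of the short-wavelength fish. ENSXMAT00000013599 had 239 to 342 CPM after 350–450 nm, 193 and 141 CPM in the controls and 66.9 to 109 CPM after 500–600 nm. ENSXMAT00000011334 had 312 to 449 CPM, 212 and 179 CPM, and 91.6 to 153 CPM in the same 3 sets of fish. ENSXMAT00000015760 had 226 to 296 CPM, 184 and 197 CPM, and 69.9 to 92.2 CPM. In these 3 transcripts the controls lay between the short and the long wavebands without overlap.

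The most abundant member, ENSXMAT00000004795, carried a large share of the members' counts. It had 3299 and 3120 CPM after 350–400 nm, 3882 and 3274 CPM after 400–450 nm, 1651 and 1152 CPM after 500–550 nm and 1400 and 1280 CPM after 550–600 nm. Its controls had 2612 and 2703 CPM, between both sets and nearer to the short wavebands. ENSXMAT00000000182, at a mean of 726 CPM, was more scattered, with 868 to 1627 CPM after 350–450 nm, 1183 and 829 CPM in the controls and 216 to 722 CPM after 500–600 nm. ENSXMAT00000018870 had 397 to 507 CPM, 236 and 252 CPM, and 127 to 180 CPM in the same sets. ENSXMAT00000004568 had 185 to 490 CPM, 219 and 243 CPM, and 83.1 to 140 CPM, so that its lowest short-wavelength fish was below both controls.

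**Figure D2:**
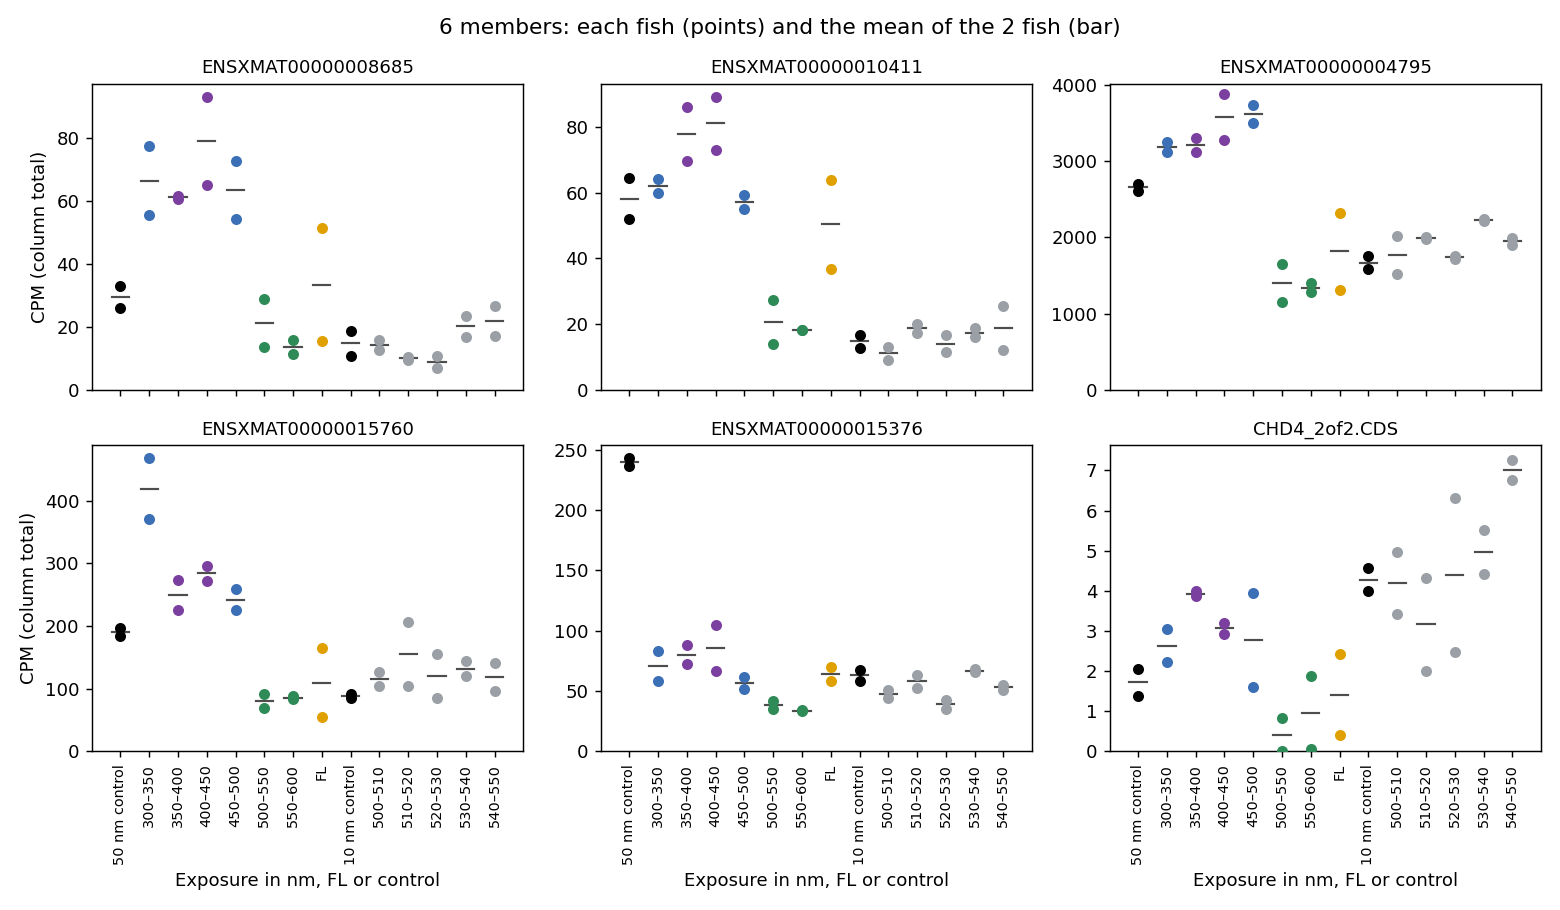
CPM by column total in each fish (points) and the mean of the 2 fish (bars) for 6 members, over the controls, the 50 nm wavebands, FL and the 10 nm wavebands. In all 6 panels the long-wavelength fish (green) are below the short-wavelength fish (violet), in the first 4 the 10 nm controls (black, right) are near the long-wavelength fish, and CHD4_2of2 is higher in the 10 nm experiment than in most libraries of the 50 nm experiment.

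Against the 50 nm controls, most of the distance between short and long wavelengths lay on the side of lower levels after 500–600 nm. The median difference from the controls on the log2(CPM + 1) scale was 0.40 after 350–450 nm and -0.97 after 500–600 nm, against -0.02 and -0.04 over all transcripts. In 86 members the part below the control was the larger, and in 14 the part above it. In 87 the short wavebands were above and the long ones below the control mean, in 12 both were below it and in 1 both were above it. All 4 fish of 500–600 nm were below both controls in 86 members (26.1% of all transcripts), and all 4 fish of 350–450 nm were above both controls in 59 (19.8% of all transcripts). These differences rest on the fish that chose the members and are not tested. In bulk RNA from skin, fewer cells of a type and less RNA per cell cannot be told apart.

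The members were selected on the fish of 350–450 and 500–600 nm. The high level of the former and the low level of the latter below thus come from the choice. The median member had 56.5 and 62.8 CPM in the 50 nm controls, 55.2 and 54.8 CPM after 300–350 nm, 66.6 and 64.6 CPM after 350–400 nm, 76.6 and 69.3 CPM after 400–450 nm and 60.3 and 53.8 CPM after 450–500 nm. It had 31.5 and 26.1 CPM after 500–550 nm and 27.5 and 26.2 CPM after 550–600 nm. The libraries outside the choice, the controls and the fish of 300–350 and 450–500 nm, were at 53.8 to 62.8 CPM. Their place below the fish of 350–450 nm follows from the choice and is not a result. On the log2(CPM + 1) scale the median of all transcripts was 4.37 to 4.56 in these 14 libraries and that of the members 4.76 to 6.28. As a share of all counts, the 100 members together took 1.10% and 1.15% in the 50 nm controls, 1.18% to 1.57% in the 8 fish of 300–500 nm and 0.515% to 0.639% in the 4 fish of 500–600 nm.

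**Figure D3:**
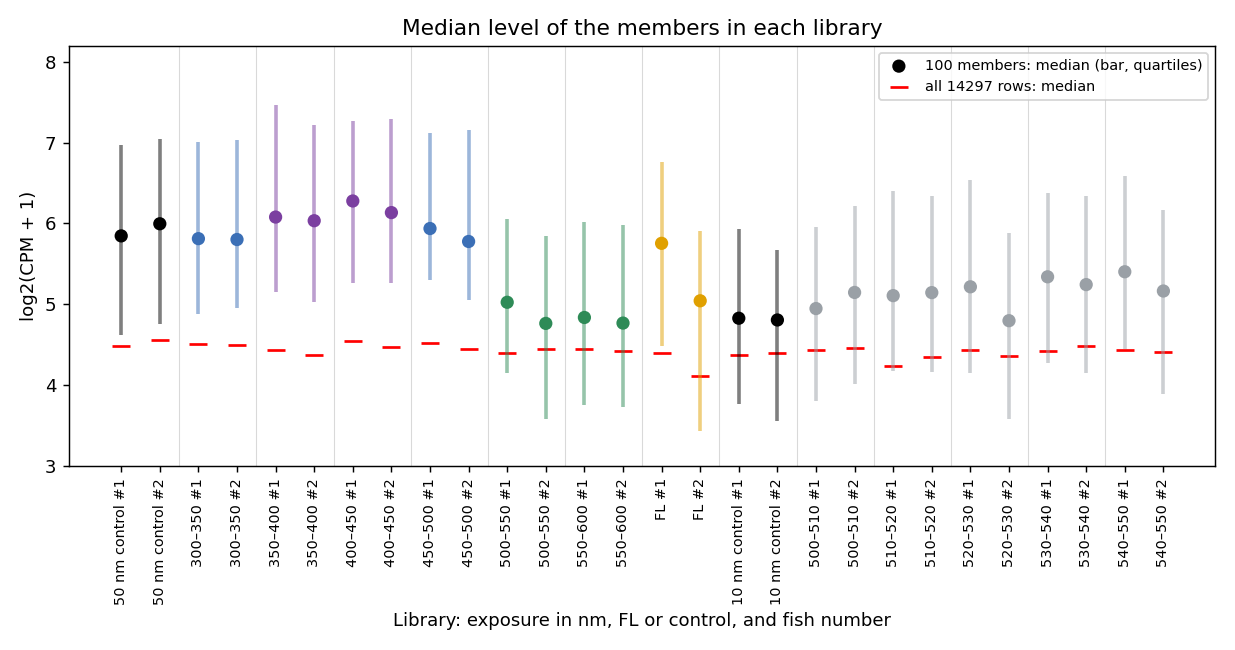
Median log2(CPM + 1) of the 100 members in each library (points, with bars from the lower to the upper quartile) beside the median of all 14297 transcripts (red lines). Members sit between 5.78 and 6.28 in the controls and wavebands up to 500 nm of the 50 nm experiment, between 4.76 and 5.02 after 500–600 nm, and between 4.80 and 5.40 in the 10 nm experiment.

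The members mostly varied together in the 20 libraries that had no part in choosing them. The profile of a member over those libraries correlated with the median profile of the other members at a median r of 0.80, with r of at least 0.7 in 73 members. These libraries include controls and exposures of both experiments, so the values share the difference between experiments. No such r was computed for other transcripts or within 1 experiment. In 8 members r was under 0.3, the lowest at -0.38: ENSXMAT00000015078, ENSXMAT00000019600, CHD4_2of2, ENSXMAT00000005594, ENSXMAT00000011049, ENSXMAT00000012041, ENSXMAT00000000182 and ENSXMAT00000008275. ENSXMAT00000011049 was either low or high in single fish, with 280 and 19.2 CPM after 350–400 nm, 11.6 and 349 CPM after 400–450 nm, 438 and 10.1 CPM after 500–550 nm and 9.05 and 8.01 CPM after 550–600 nm. Its place in the list rests on 1 fish in each short waveband. Within the 10 nm experiment, ENSXMAT00000000182 and ENSXMAT00000008275 were highest in the 4 fish of 510–530 nm. The first had 1132 to 1334 CPM in those 4 fish and 166 to 510 CPM in the other 6 exposed fish. ENSXMAT00000008275 had 81.0 to 108 CPM and 10.8 to 60.4 CPM in the same sets. For both transcripts, the 2 controls of the 10 nm experiment lay far apart, at 731 and 190 CPM and at 62.7 and 16.1 CPM. This split of the wavebands was made after the values were seen and was not tested.

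Unexposed fish of the 2 experiments differed in these transcripts by about as much as the 500–600 nm fish did from their controls. The median member had 27.4 and 26.9 CPM in the 10 nm controls, within the range of the 500–600 nm fish, against 56.5 and 62.8 CPM in the 50 nm controls. The median difference on the log2(CPM + 1) scale was -1.06 for members and -0.10 for all transcripts. In the 10 nm controls 97 members and 57.1% of all transcripts were lower. Both 10 nm controls were below both 50 nm controls in 93 members, a pattern met by 44.4% of all transcripts. In edgeR's quasi-likelihood test of the 4 controls, a comparison chosen after the data were seen, 45 of the 100 members were lower and 1 was higher at an adjusted p under 0.05 and a difference of 1 or more on the log2 scale. Of all 16545 transcripts tested, 6.65% were called lower, and 12.6% were called in either direction. With other tools and settings, 42 to 47 members and 9.13% to 12.6% of all transcripts were called. Without 1 of the 4 libraries the members' median log2 fold change was -1.01 to -0.91. What else separated the 2 experiments is not stated in the sources used here and cannot be told apart from the experiment.

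The lowest adjusted p among members belonged to ENSXMAT00000012900, with 137 and 149 CPM in the 50 nm controls and 21.6 and 26.7 CPM in the 10 nm controls. The log2 fold change in edgeR's quasi-likelihood test was -2.45 (standard error 0.13, adjusted p 0.000473). ENSXMAT00000015376 had 236 and 243 CPM against 58.4 and 67.3 CPM (-1.82, adjusted p 0.000500). ENSXMAT00000006381 had 53.6 and 70.5 CPM against 15.3 and 15.2 CPM (-1.91, adjusted p 0.000613). ENSXMAT00000005551, with 46.3 and 58.3 CPM against 12.8 and 10.3 CPM, and ENSXMAT00000002475, with 57.5 and 56.2 CPM against 17.7 and 14.7 CPM, were lower by log2 fold changes of -2.08 (adjusted p 0.000697) and -1.71 (adjusted p 0.000721). In all 5 both 10 nm controls were below both 50 nm controls, which held for 44.4% of all transcripts. These 5 were picked for the smallest adjusted p among members called lower, so this separation follows largely from the choice. For ENSXMAT00000010411 and ENSXMAT00000008245, described above for their low levels after 500–600 nm, the 10 nm controls had 16.6 and 12.8 CPM and 16.3 and 10.8 CPM, within the range of the 4 long-wavelength fish or close below it.

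**Figure D4:**
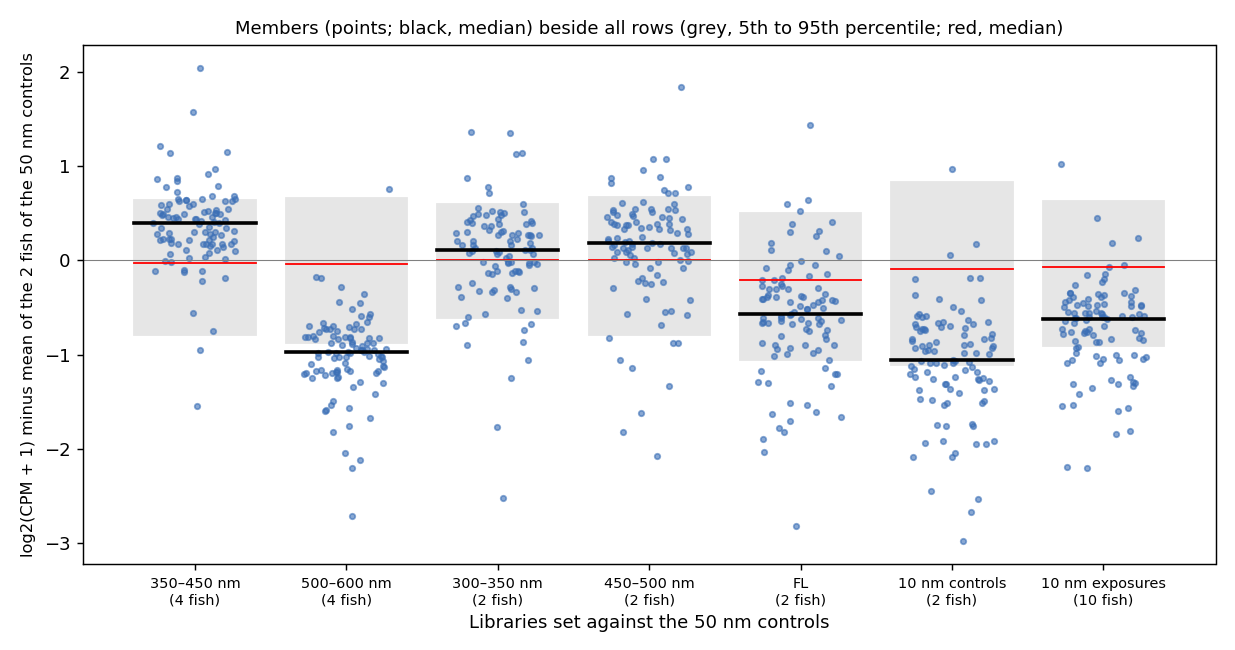
Difference in log2(CPM + 1) of each member (points) from the mean of the 2 controls of the 50 nm experiment, with the members' median (black) and the 5th to 95th percentile (grey) and median (red) of all transcripts. The first 2 sets chose the members. The 10 nm controls have a median of -1.06, close to the -0.97 of the 500–600 nm fish, and the 300–350 and 450–500 nm fish lie around the control level.

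The 300–350 nm fish took no part in the choice of members. Over the 100 members the median log2 fold change against the 50 nm controls was 0.09, against -0.01 over all transcripts, with 59 positive and 41 negative values. Of all transcripts, 49% were positive. In edgeR's quasi-likelihood test 1 member rose and 1 fell, and 0.975% of the 16722 transcripts tested were called. At an unadjusted p under 0.05 there were 24 members, and 20.9% of all transcripts. ENSXMAT00000015760 had 468 and 371 CPM after 300–350 nm and 184 and 197 CPM in the controls. The increase was 1.12 on the log2 scale (standard error 0.17, adjusted p 0.0156). It was also higher in these fish than in the 4 fish of 350–450 nm. ENSXMAT00000015376 had 83.5 and 58.1 CPM, against 236 and 243 CPM in the controls (log2 fold change -1.78, standard error 0.22, adjusted p 0.00840). This transcript was at 33.0 to 105 CPM in all 24 other libraries, so its 2 controls of the 50 nm experiment stood alone. DESeq2 called 5 members (1.81% of all transcripts). Calls were lost without 1 library, where the members' median log2 fold change was 0.02 to 0.19.

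The 450–500 nm fish lie between the short and the long wavebands and were not used to choose members. The median log2 fold change against the 50 nm controls was 0.20, with 73 positive and 27 negative values, against 0.00 over all transcripts, of which 50% were positive. In edgeR's quasi-likelihood test 2 members rose and 3 fell, and 2.73% of the 16722 transcripts tested were called. At an unadjusted p under 0.05 there were 34 members, 25 of them higher, and 27.9% of all transcripts.

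ENSXMAT00000007803 had 202 and 150 CPM after 450–500 nm and 73.4 and 92.9 CPM in the controls (log2 fold change 1.08, adjusted p 0.0473, edgeR quasi-likelihood test). ENSXMAT00000000558 had 47.5 and 36.5 CPM against 13.3 and 9.03 CPM (1.90, adjusted p 0.0491). Both are called by a narrow margin. ENSXMAT00000012900 had 43.8 and 48.0 CPM against 137 and 149 CPM (-1.64, adjusted p 0.00251) and was as low as after 500–550 nm, where the fish had 45.5 and 33.2 CPM. ENSXMAT00000015376 had 61.2 and 51.5 CPM (-2.10, adjusted p 0.00318). ENSXMAT00000003660 had 41.8 and 34.4 CPM against 87.8 and 81.3 CPM (-1.16, adjusted p 0.0107). A fit of the 2 groups alone called 1 member (0.0183% of all transcripts). ENSXMAT00000007803 and ENSXMAT00000000558 lost the call in every fit without 1 library, with log2 fold changes of 0.90 to 1.26 and 1.62 to 2.23. ENSXMAT00000003660 lost it without control fish 1, control fish 2 or 450–500 nm fish 2. In the fits without 1 library the members' median log2 fold change was 0.17 to 0.29.

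Between 450–500 and 300–350 nm, both outside the choice, no member passed in edgeR's quasi-likelihood test, and the share called was 0% of all transcripts. The median member differed by 0.09, with 66 members and 49.3% of all transcripts positive. There were 17 members at an unadjusted p under 0.05, against 8.95% of all transcripts, and DESeq2 called 4 (0.281% of all transcripts). Without 1 library the members' median was 0.07 to 0.14.

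After FL, a broad-spectrum light, no member passed in edgeR's quasi-likelihood test against the 2 distinct controls, and the share called was 0% of 16513 transcripts. At an unadjusted p under 0.05 there were 6 higher and 12 lower members, and 16.8% of all transcripts, and DESeq2 called 7 members, where it called 3.72% of all transcripts. The median log2 fold change was -0.31 for members and -0.02 for all transcripts. It was negative in 76 members and positive in 24, and 48.7% of all transcripts were positive. By column total the median of all transcripts was itself shifted by -0.21 after FL, and that of members by -0.57. The 2 FL fish did not have the same level. The median member differed from the controls by -0.07 in FL fish 1 and by -0.98 in FL fish 2, where all transcripts differed by -0.08 and -0.30. In 94 members fish 2 was below fish 1, a pattern met by 70.6% of all transcripts. Between the 2 fish, 40 members and 9.30% of all transcripts differed at least 2-fold.

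By column total, FL fish 1 was near the level of the 300–350 and 450–500 nm fish in these transcripts. FL fish 2 was near that of the 500–600 nm fish. The level of FL fish 2 includes a shift of -0.30 in the median of all transcripts, which was -0.09 to -0.02 in the 500–600 nm fish. ENSXMAT00000000558 had 22.6 and 2.57 CPM in FL fish 1 and 2, and ENSXMAT00000007803 had 92.7 and 28.4 CPM. ENSXMAT00000004795 had 2320 and 1312 CPM. Without FL fish 1 the test called 39 members, 38 of them lower, and 15.2% of all transcripts, with a member median of -0.68. Without FL fish 2 it called 9 members and 2.53% of all transcripts, with a median of 0.01. The FL fish that remains has no spread of its own in these fits and is assumed to vary as the controls do. MYL2B, the muscle marker, had 40.3 CPM in FL fish 1 and 150 CPM in FL fish 2, and its part in the difference was not tested. The largest log2 fold change, 1.73 (adjusted p 0.120), was that of ENSXMAT00000013238, with 24.2 and 29.3 CPM against 10.8 and 7.91 CPM in the controls. The smallest, -2.75 (adjusted p 0.116), was that of ENSXMAT00000011049, with at most 18.1 CPM against 85.0 and 164 CPM. Both transcripts separated FL from control fish but did not pass the test.

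The 10 nm wavebands divide the range of 500–550 nm, had their own controls and took no part in the choice of members. Against those controls the members were on average higher, not lower, after light. The median log2 fold change of the mean of the 5 wavebands was 0.32 for members and -0.03 for all transcripts. Of the members 87 were positive, and of all transcripts 46.7%. In edgeR's quasi-likelihood test no member passed, and 0.0244% of 16366 transcripts were called. At an unadjusted p under 0.05 there were 30 higher and 4 lower members, and 26.8% of all transcripts, and DESeq2 called 8 members, all higher, where it called 3.79% of all transcripts. Without 510–520 nm fish 2 the test called 9 members and 6.76% of all transcripts, and without 520–530 nm fish 2 it called 7 members and 2.91%. The members called were higher in both fits. All 10 exposed fish were above both controls in 21 members, against 15.2% of all transcripts.

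By waveband the median member was above the 10 nm controls by 0.12, 0.36, 0.23, 0.47 and 0.44 on the log2(CPM + 1) scale, from 500–510 to 540–550 nm. The median of all transcripts differed by 0.03, -0.08, -0.001, 0.06 and 0.02. Members above the control mean numbered 71, 75, 75, 92 and 92 in the same order. The shares of all transcripts above it were 52.5%, 43.9%, 49.8%, 55.7% and 52.3%. In single fish the median difference was 0.02 to 0.62, lowest in 520–530 nm fish 2 and highest in 540–550 nm fish 1. The 2 fish of 520–530 nm, at 0.44 and 0.02, were further apart than the medians of the 5 wavebands. For 530–550 against 500–520 nm no member passed in edgeR's quasi-likelihood test, with 0% of all transcripts called, 13 members (11.1% of all transcripts) at an unadjusted p under 0.05 and 1 call in DESeq2 (0.77% of all transcripts). The median log2 fold change was 0.15 for members and -0.02 for all transcripts, with 74 members and 45.9% of all transcripts positive. Without 1 fish of these wavebands the members' median was 0.04 to 0.25.

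ENSXMAT00000013599 had 47.8 and 49.6 CPM in the 10 nm controls and 68.7 to 160 CPM in the 10 exposed fish, all above both controls. Its log2 fold change for the mean of the wavebands was 1.17 (standard error 0.26) and its adjusted p of 0.0787 in edgeR's quasi-likelihood test was the lowest among members. ENSXMAT00000005551 likewise had 12.8 and 10.3 CPM in the controls and 17.9 to 33.1 CPM in the exposed fish (1.11, adjusted p 0.0800). The largest log2 fold change, 1.90 (standard error 1.05, adjusted p 0.263), was that of ENSXMAT00000011049, with 13.4 and 15.0 CPM in the controls and 13.4 to 182 CPM in exposed fish. The smallest, -0.74 (standard error 0.27, adjusted p 0.137), was that of ENSXMAT00000012421, with 10.9 and 8.49 CPM against 3.99 to 9.16 CPM. None of these values passed.

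**Figure D5:**
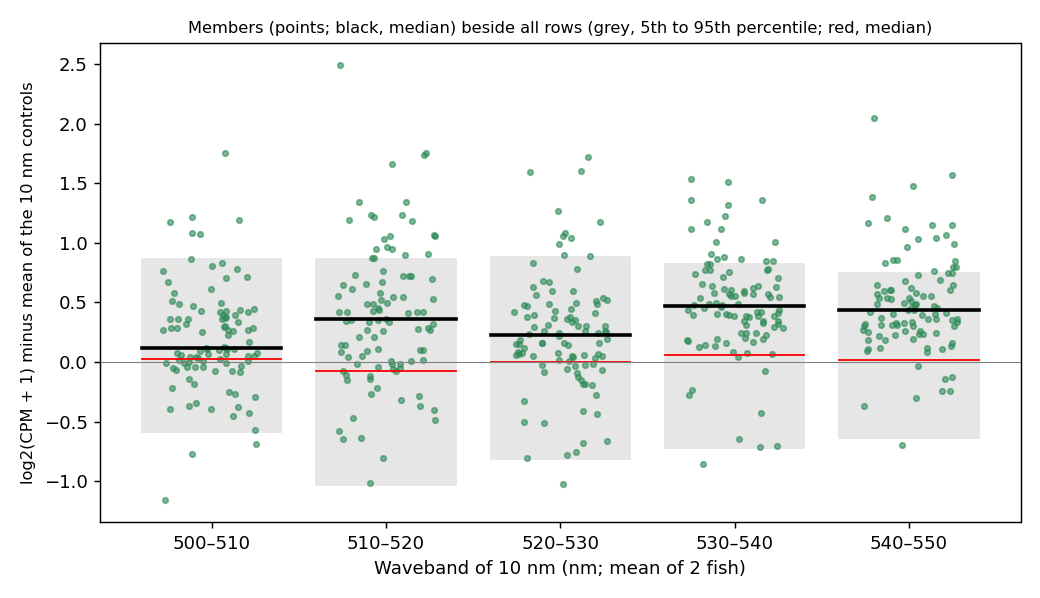
Difference in log2(CPM + 1) of each member (points) between the mean of the 2 fish of a 10 nm waveband and the mean of the 2 controls of the 10 nm experiment, with the members' median (black) and the 5th to 95th percentile (grey) and median (red) of all transcripts. The members' median is above 0 in each waveband, from 0.12 at 500–510 nm to 0.47 at 530–540 nm.

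Compared with the 50 nm controls instead, the exposed fish of the 10 nm experiment stayed low, with a median difference of -0.63 for members and -0.07 for all transcripts. All 10 were below both 50 nm controls in 57 members, against 19% of all transcripts. The members' median in these fish was thus below the 50 nm controls and above the 10 nm controls. Set against the 10 nm controls, the 2 fish of the 500–550 nm waveband had medians of 0.28 and -0.07. Exposure and experiment cannot be told apart where fish are set against the controls of the other experiment.

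CHD4_2of2 is the member with a gene name. CHD4 is an ATPase of the nucleosome remodelling and deacetylase (NuRD) complex, which moves nucleosomes and represses transcription, and the suffix marks it as the second of 2 copies. How reads that match several transcripts were counted is not stated, so reads of the copies may be split between them and its values are uncertain. It was among the rare members, with 32 and 48 counts in the 50 nm controls, 69 and 61 after 350–400 nm, 51 and 48 after 400–450 nm, 0 and 16 after 500–550 nm and 30 and 2 after 550–600 nm. In CPM the 4 fish of 350–450 nm had 2.93 to 3.99 and the 4 of 500–600 nm had 0 to 1.87, with the controls at 1.38 and 2.06. The count of 0 allows up to 3 counts, or 0.202 CPM, for counting error alone. The fish of each long waveband differed by more than the 2 controls did. After 300–350 nm it had 3.06 and 2.22 CPM and after 450–500 nm 1.60 and 3.93 CPM. Its log2 fold changes there were 0.60 and 0.71, with adjusted p of 0.785 and 0.673 in edgeR's quasi-likelihood test.

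Unlike the other members called, CHD4_2of2 was higher in the 10 nm controls, at 4.56 and 4.00 CPM, than in the 50 nm controls. The difference was 1.42 on the log2 scale (standard error 0.27, adjusted p 0.00700, edgeR quasi-likelihood test), and in 1 fit of all 28 libraries its adjusted p was 0.279. In the 10 nm experiment the exposed fish had 2.01 to 7.26 CPM, on both sides of the controls, with the highest values of 7.26 and 6.76 CPM after 540–550 nm. The mean of the wavebands differed from the controls by 0.10 (adjusted p 0.880). In the FL fish it had 2.42 and 0.402 CPM, on both sides of the controls.

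The named transcripts nearest to the members by D were TGM8, of the transglutaminase family of protein cross-linking enzymes, at place 126 with D of -1.11, CALR3_1of2, a calreticulin, at place 354 with -0.86, and PRKDC, the catalytic subunit of a kinase in DNA double-strand break repair, at place 393 with -0.84. None of the listed circadian, cell cycle, stress or Gq, calcium and PKC genes was a member. The 4 circadian transcripts with a name (CRY2A, RORA, BHLHE40 and NR1D4) had a median D of -0.30, the 6 cell cycle transcripts 0.16, the 5 stress transcripts -0.01 and the 8 of Gq, calcium and PKC signalling 0.06. In the tests outside the choice of members, CRY2A, a cryptochrome, was the 1 of 4 circadian transcripts called, higher after 300–350 nm (1.72, adjusted p 0.00471) and after 450–500 nm (1.32, adjusted p 0.00824, both edgeR quasi-likelihood test). KPNA2, a nuclear import factor listed with the cell cycle, fell by 2.05 on the log2 scale after 450–500 nm (adjusted p 0.0419), 1 of 9 tested. In the unexposed 10 nm controls, relative to the 50 nm controls, CRY2A was likewise called higher (1.07, adjusted p 0.00298) and KPNA2 lower (-1.69, adjusted p 0.00133), with 4 of 9 cell cycle transcripts called lower. No stress or Gq, calcium and PKC transcript was called in the tests of an exposure.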

How the data were processed

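The authors trimmed and filtered reads of 125 bp, mapped them to the Ensembl cDNA reference of the species with GSNAP and deposited raw counts per transcript, not normalized, quantified with xEpress. How multi-mapped reads were counted is not given in the sources used here. Methods state that replicates are independent fish, so p-values measure the spread between fish of a group, with 2 fish a group. This spread was pooled over all groups of a fit, not only those compared. Sham-treated fish and NanoString values were not analysed here.

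Members were chosen on CPM by column total (minimum mean of 2, pseudocount 1). The members, gene lists and rules were chosen with earlier results of these data known. Counts were tested with edgeR 4.0.16 in R 4.3.3 (filterByExpr, TMM, quasi-likelihood test, Benjamini-Hochberg adjustment over all transcripts tested), called at an adjusted p under 0.05 and a change of 1 or more on the log2 scale. All 100 members passed filterByExpr in each fit. The 50 nm experiment (14 libraries), FL with its controls (4) and the 10 nm experiment (12) were fitted separately. In the fit of the 50 nm experiment, the pooled spread thus includes the fish that chose the members. Standard errors were taken as the size of the log2 fold change over the root of F. The comparison of the 2 control groups was added after the data were seen. Alternatives were DESeq2 1.42.0, RLE size factors, no filter, other libraries in the fit, the replicate number as a block and each library left out. Tests were tried on simulated data.

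Named are members with a gene name, the 10 smallest D, the 5 most abundant, up to 5 called in each direction per test, the 3 on each side of the limit and the largest and smallest change after FL and over the 10 nm wavebands. Other members named for their scatter, or for their values in the 10 nm experiment, were chosen after their values were seen. Figures were drawn with matplotlib 3.10.9.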

Additional observations from a re-analysis of the deposited data

Results flagged for a closer look

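The members lay on opposite sides of their controls in the 2 experiments that covered 500–550 nm. After the 500–550 nm waveband their median difference from the 50 nm controls was -0.97 on the log2(CPM + 1) scale, with -0.81 in fish 1 and -1.14 in fish 2. Over the 10 nm wavebands of the same range their median difference from the 10 nm controls was 0.32. The median was positive in 10 of 10 fish, from 0.02 to 0.62, while that of all transcripts was -0.13 to 0.09. All 10 fish are set against the same 2 controls, so these are not independent agreements. The 500–550 nm fish helped to choose the members, and the difference between the experiments was not tested.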

How the results depend on the processing

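Of the 100 members, 82 to 100 stayed in the list under other pseudocounts, minimum levels or TMM library sizes, and 83 to 90 without 1 of the 8 libraries that chose them. With 2 fish a group, leaving out a single library could change the count of called members in each comparison of an exposure. In the 10 nm experiment most libraries left out did not change it. DESeq2 called 5 members after 300–350 nm (edgeR 2), 4 for 450–500 against 300–350 nm (0), 7 after FL (0), 8 for the mean of the 10 nm wavebands (0) and 1 for 530–550 against 500–520 nm (0). In the same order it called 1.81%, 0.281%, 3.72%, 3.79% and 0.77% of all transcripts. The 450–500 nm groups fitted alone gave 1 call in place of 5, with 0.0183% of all transcripts called in place of 2.73%. FL in a fit with the 50 nm wavebands gave 2 in place of 0, with 1.32% of all transcripts called. Without 1 library the counts were 0 to 1 after 300–350 nm, 2 to 5 after 450–500 nm, 0 to 1 between these wavebands, 0 to 39 after FL, 0 to 9 for the mean of the 10 nm wavebands, 0 to 1 for 530–550 against 500–520 nm and 43 to 51 between the control groups. Each of these fits leaves 1 fish in a group. In every comparison the share of all transcripts called also varied between these fits, so the ranges do not describe the members alone. The causes were not tested, beyond the fewer samples of these fits. Of 186 values of named members under the alternatives, 156 kept their direction and call, 21 lost the call and 1 gained it. The other 8 changed sign, all of CHD4_2of2, which is not called in these comparisons, and all with 1 library left out: its log2 fold change ranged over these fits from -0.12 to 1.24 after 450–500 nm (1 sign change), from -0.72 to 0.64 for 450–500 against 300–350 nm (2, the other -0.11), from -1.75 to 0.58 after FL (2, the other 0.13) and from -0.075 to 0.21 for the mean of the 10 nm wavebands (3, the others -0.011 and -0.044). Replicate numbers join different fish. Deviations of same-numbered fish correlated at -0.22 (300–350 nm and control), -0.05 (450–500 nm and control), 0.03 (both wavebands), -0.26 (FL and control) and -0.03 (both control groups). Over 15 pairs of groups in the 10 nm experiment the correlation was 0.17 on average, from -0.03 to 0.62. The replicate number as a block gave 6 calls for the mean of the 10 nm wavebands in place of 0, with 3.62% of all transcripts called, and moved no other count by over 1.5 times. Crossing the numbers, an alternative added later with the data in view, gave 5 calls after FL in place of 0, with 2.17% of all transcripts called. Low counts, such as the 0 and 2 of CHD4_2of2 in 2 of the 4 fish of 500–600 nm, limit the precision of the rarest members.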
